A study of Mus musculus with 32 samples.

Results

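Immunoglobulin gene segments are the pieces of DNA from which B cells assemble antibody genes. The set described here holds every gene whose deposited annotation gave it an immunoglobulin biotype that is not a pseudogene, plus Jchain, which encodes the joining chain of polymeric antibodies. Of 10055 genes listed in any of the 4 organ tables of the series, 83 met this rule, and all 83 matched GENCODE M21 (mouse build GRCm38) in identifier, symbol and coordinates. That annotation holds 269 such genes in all. The 83 comprised 42 genes of the heavy chain locus on chromosome 12, 36 of the kappa light chain locus on chromosome 6 and 5 of the lambda light chain locus on chromosome 16. By kind they were 71 variable (V) segments, 6 joining (J) segments and 6 constant (C) regions. No diversity (D) segment was listed, and Jchain was listed in none of the tables.

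The mice were male and either lacked Khk (Khk KO) or were wild type (WT), and the study asked how fructose and ketohexokinase, the enzyme Khk encodes, act on iron homeostasis. Polyadenylated RNA of the liver and of 3 segments of the small intestine (duodenum, jejunum and ileum) was sequenced, with 4 libraries for each genotype and organ, 32 libraries in 8 groups. The labels give neither the age and strain of the mice nor the kind of Khk allele, and they do not say whether the libraries of a group came from separate mice or whether a mouse gave more than 1 organ. The p-values therefore measure the spread between these libraries.

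A B cell joins a V to a J segment for its light chain, with a D segment in between for its heavy chain, so that each B cell and its descendants transcribe very few V segments while sharing the constant regions. Plasma cells, the antibody-secreting descendants, lie in the lamina propria of the gut, where most make IgA, and each transcribes its rearranged genes at a very high level. The V segments seen in a piece of gut thus reflect which B cell clones were in it, while the constant regions are shared by many clones. In bulk tissue, fewer cells of a type and less RNA per cell cannot be told apart.

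The part of each V segment that ends at its conserved second cysteine marks the edge of the joint with the next segment, and it is shown for the 13 V genes that were listed in the duodenum, jejunum and ileum tables, because the comparison between organs turns on them. The sequences are those of GENCODE M21 transcripts on GRCm38, 5′ to 3′ on the coding strand, with the cysteine codon in capitals.
Ighv1-42: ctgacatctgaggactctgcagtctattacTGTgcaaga
Ighv1-84: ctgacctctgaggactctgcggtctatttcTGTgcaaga
Ighv3-8: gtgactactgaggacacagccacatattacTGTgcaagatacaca
Ighv7-3: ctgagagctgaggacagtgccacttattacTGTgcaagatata
Ighv8-8: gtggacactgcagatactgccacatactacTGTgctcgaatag
Igkv1-117: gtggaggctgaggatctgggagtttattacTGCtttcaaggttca
Igkv11-125: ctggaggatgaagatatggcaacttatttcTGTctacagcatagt
Igkv14-100: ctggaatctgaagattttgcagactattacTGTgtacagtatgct
Igkv14-126: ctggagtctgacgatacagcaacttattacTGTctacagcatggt
Igkv15-103: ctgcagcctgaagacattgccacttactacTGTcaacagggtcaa
Igkv4-57-1: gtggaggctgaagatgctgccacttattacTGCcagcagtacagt
Igkv4-58: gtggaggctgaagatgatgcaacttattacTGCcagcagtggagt
Iglv1: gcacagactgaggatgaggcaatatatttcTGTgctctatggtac
The window was placed on the last match of TANTNNTGT or TANTNNTGC, letters that 212 of the 218 annotated V genes (97.2%) hold somewhere in the transcript on the coding strand and 21 (9.63%) on the other strand. Positions of these windows on GRCm38 run from chr12:114937113-114937151 on the minus strand for Ighv1-42 and chr6:69500267-69500311 on the minus strand for Igkv4-58 to chr16:19085029-19085073 on the minus strand for Iglv1. The J segments supply the other side of the joint. Shown for each locus is the J segment listed with the highest level in duodenum, with capitals marking the motif TTNGGNNNNGG or TGGGGNNNNGG, which encodes the conserved phenylalanine or tryptophan and the glycines after it.
Ighj4: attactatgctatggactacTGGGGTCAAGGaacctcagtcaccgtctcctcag
Igkj5: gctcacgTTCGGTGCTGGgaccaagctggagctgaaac
Iglj1: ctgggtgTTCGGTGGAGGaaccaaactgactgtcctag
This motif occurred in 12 of the 14 annotated J genes (85.7%) on the coding strand and in 0 on the other. A match describes letters only.

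Facts that bear on all values are few. A gene appears in a table where its unadjusted p in the authors' own test was under 0.05, so that being listed is itself an outcome, and counts, medians and sums over listed members are descriptions. Reads of listed genes ranged between 1722220 and 3549978 over the duodenum libraries and between 3053896 and 4325568 over jejunum. They ranged between 6531593 and 9149003 over ileum and between 7505439 and 14331517 over liver. Library totals implied by the FPKM values were 15691175 to 29475414 in duodenum and 14797693 to 19915152 in jejunum. These totals were 17297866 to 27068822 in ileum and 9821512 to 15174254 in liver. The number of reads sequenced is not known. Khk itself was lower in every Khk KO library than in every WT library of the same organ, at 4.59% (duodenum) to 11.1% (liver) of the WT mean. WT library 1 stood apart from the other WT libraries in each gut segment. Over listed genes, its chi-square per degree of freedom against them ran from 92.6 to 116 in ileum, from 139 to 182 in jejunum and from 142 to 295 in duodenum, where the other WT pairs had 24.6 to 26.2, 16.6 to 23.3 and 17.7 to 37.8. In liver the WT pairs had 13.8 to 238, with the highest between WT libraries 1 and 3, and the Khk KO pairs 11.5 to 21.3. Without WT library 1, edgeR called 0 members in duodenum, 0 in jejunum, 12 in ileum and 1 in liver, against 0, 0, 7 and 0 with it. The share of all genes called without that library is not given here. The duodenum libraries carried names of another numbering series than the other organs. The listed members were short, with a median length of 358 bases in duodenum against 2691 for all genes listed there, and of 363 against 3810 in ileum. Many V genes have near-identical copies. Of the 71 V members, 48 had another immunoglobulin gene or pseudogene at least 90% identical over the transcript, 24 of them at least 95%, so that how reads were split between copies is uncertain. Khk KO over WT is the direction of every fold change.

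Listed immunoglobulin V genes stood mostly at a higher level in Khk KO than in WT duodenum and jejunum, while in the ileum the 3 listed constant regions were lower and the V genes were split. In duodenum 59 members were listed, 55 higher and 4 lower in Khk KO, and the authors' deposited table called 14 of them at an adjusted p under 0.05, all higher, against 0.224% of all genes tested (0.128% higher and 0.0961% lower). These 14 made up 40.0% of the 35 genes called in that organ and 70.0% of the 20 called higher. In jejunum 45 were listed, 42 higher and 3 lower, and the authors' deposited table called 10, all higher, against 0.759% of all genes tested (0.536% higher and 0.223% lower). These were 13.3% of the 75 genes called there. In ileum 31 were listed, 18 higher and 13 lower, and of these the authors' deposited table had 5 called higher and 5 lower, against 15.6% of all genes tested (8.76% higher and 6.86% lower). In liver 3 were listed, all lower, and the authors' deposited table called 0, against 23.9% of all genes tested (12.5% higher and 11.4% lower). Set against the 269 annotated genes, of which the number tested is not given, the calls came to 5.20% in duodenum and 3.72% in jejunum and in ileum. The duodenal and jejunal shares lay above those of all genes. The bases differ, since the 269 include genes that were not tested, so the lower ileal share is not read as a result. Among genes listed in ileum, 10 of 31 members were called, against 2505 of 5187 of all genes.

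The counts were fitted again with edgeR's quasi-likelihood test, with Benjamini-Hochberg adjustment over as many genes as the authors had adjusted over. This called 0 members in duodenum and 0 in jejunum, where it called 0.00640% and 0.0101% of all genes, which is Khk alone in each. The edgeR shares here divide by the genes the authors had adjusted over. Only listed genes could be fitted, 1406 in duodenum, 2043 in jejunum, 4788 in ileum and 5734 in liver. Normalisation and spread were thus estimated from selected genes. DESeq2 on the same counts called 16 members in duodenum and 19 in jejunum, all higher. Of all listed genes it called 37 of 1567 in duodenum, 32 of them higher. In jejunum it called 347 of 2413, 285 of them higher. At an unadjusted p under 0.05, edgeR had 48 of the 53 members it tested in duodenum and 33 of 39 in jejunum, a share that the choice of listed genes largely sets. In ileum edgeR called 7 members, 3 higher and 4 lower, against 13.9% of all genes (7.50% higher and 6.36% lower). DESeq2 called 15 members there, 8 higher and 7 lower, against 3520 of 5187 listed genes (1937 higher and 1583 lower). In liver edgeR called 0 of the 2 members it tested, against 14.7% of all genes, and 1 had an unadjusted p under 0.05. DESeq2 called 0 there, against 4411 of 6375 listed genes. Of the 47 V genes higher in duodenum, 13 passed in the authors' deposited table, 15 by DESeq2 and 0 by edgeR. Of the 41 higher in jejunum, 10, 19 and 0 passed.

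The median of the authors' deposited log2 fold changes over listed members was 2.03 in duodenum, where all listed genes had -0.33, and 2.01 in jejunum, where they had 0.35. It was 1.07 against 0.30 in ileum and -0.91 against 0.42 in liver. The groups were apart, with every Khk KO library above every WT library, for 19 of the 59 members in duodenum, where 20.0% of all listed genes were apart in that direction, and for 0 in the other, against 26.0%. In jejunum 11 of 45 members were apart with Khk KO higher and 0 with Khk KO lower, against 33.0% and 23.0% of all listed genes. In ileum 1 member was apart with Khk KO higher and 3 with Khk KO lower, against 36.9% and 29.9%. In liver none of the 3 members was apart, against 34.3% and 30.7%. Large mean differences in V genes therefore went with wide and mostly overlapping groups.

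Heavy and light chain loci contributed about equally to the duodenal and jejunal lists. In duodenum 27 heavy chain members were listed, 24 of them higher, 29 kappa members, 28 of them higher, and 3 lambda members, all higher. The authors' deposited table called 4 heavy, 9 kappa and 1 lambda member there. In jejunum 24 heavy chain members (22 higher), 20 kappa members (19 higher) and 1 lambda member (higher) were listed, and the authors' deposited table called 4, 5 and 1. In ileum 16 heavy chain members (9 higher), 12 kappa members (8 higher) and 3 lambda members (1 higher) were listed. Of the ileal calls in the authors' deposited table, the heavy chain locus had 2 in each direction, the kappa locus 2 higher and 1 lower, and the lambda locus 1 higher and 2 lower.

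Of the 83 members, 41 were listed in 1 organ, 29 in 2 and 13 in 3, the last being V genes of duodenum, jejunum and ileum. Among these 13, Ighv8-8 was lower in Khk KO in all 3 organs, Igkv11-125 was higher in duodenum and jejunum and lower in ileum, and the other 11 were higher in all 3. Between duodenum and jejunum 34 members were shared, 57.6% of the duodenal and 75.6% of the jejunal list, and all 34 had the same direction. Of all other listed genes, 404 were shared by these tables, 26.8% of the duodenal and 17.1% of the jejunal list, and 402 had the same direction. Duodenum and ileum shared 17 members, 28.8% and 54.8% of their lists, and 16 had the same direction, while the other listed genes shared 624, 41.4% and 12.1% of their lists, 605 in the same direction. Jejunum and ileum shared 15, 33.3% and 48.4% of their lists, and 14 had the same direction, and the other listed genes shared 1207, 51.0% and 23.4%, with 1191 in the same direction. The share of the duodenal and jejunal lists found in each other was thus higher for members than for other genes, and the share found in the ileal list was lower, differences that were not tested. Whether the same mice gave these organs is not stated, so the organs cannot be taken as independent.

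**Figure D1:**
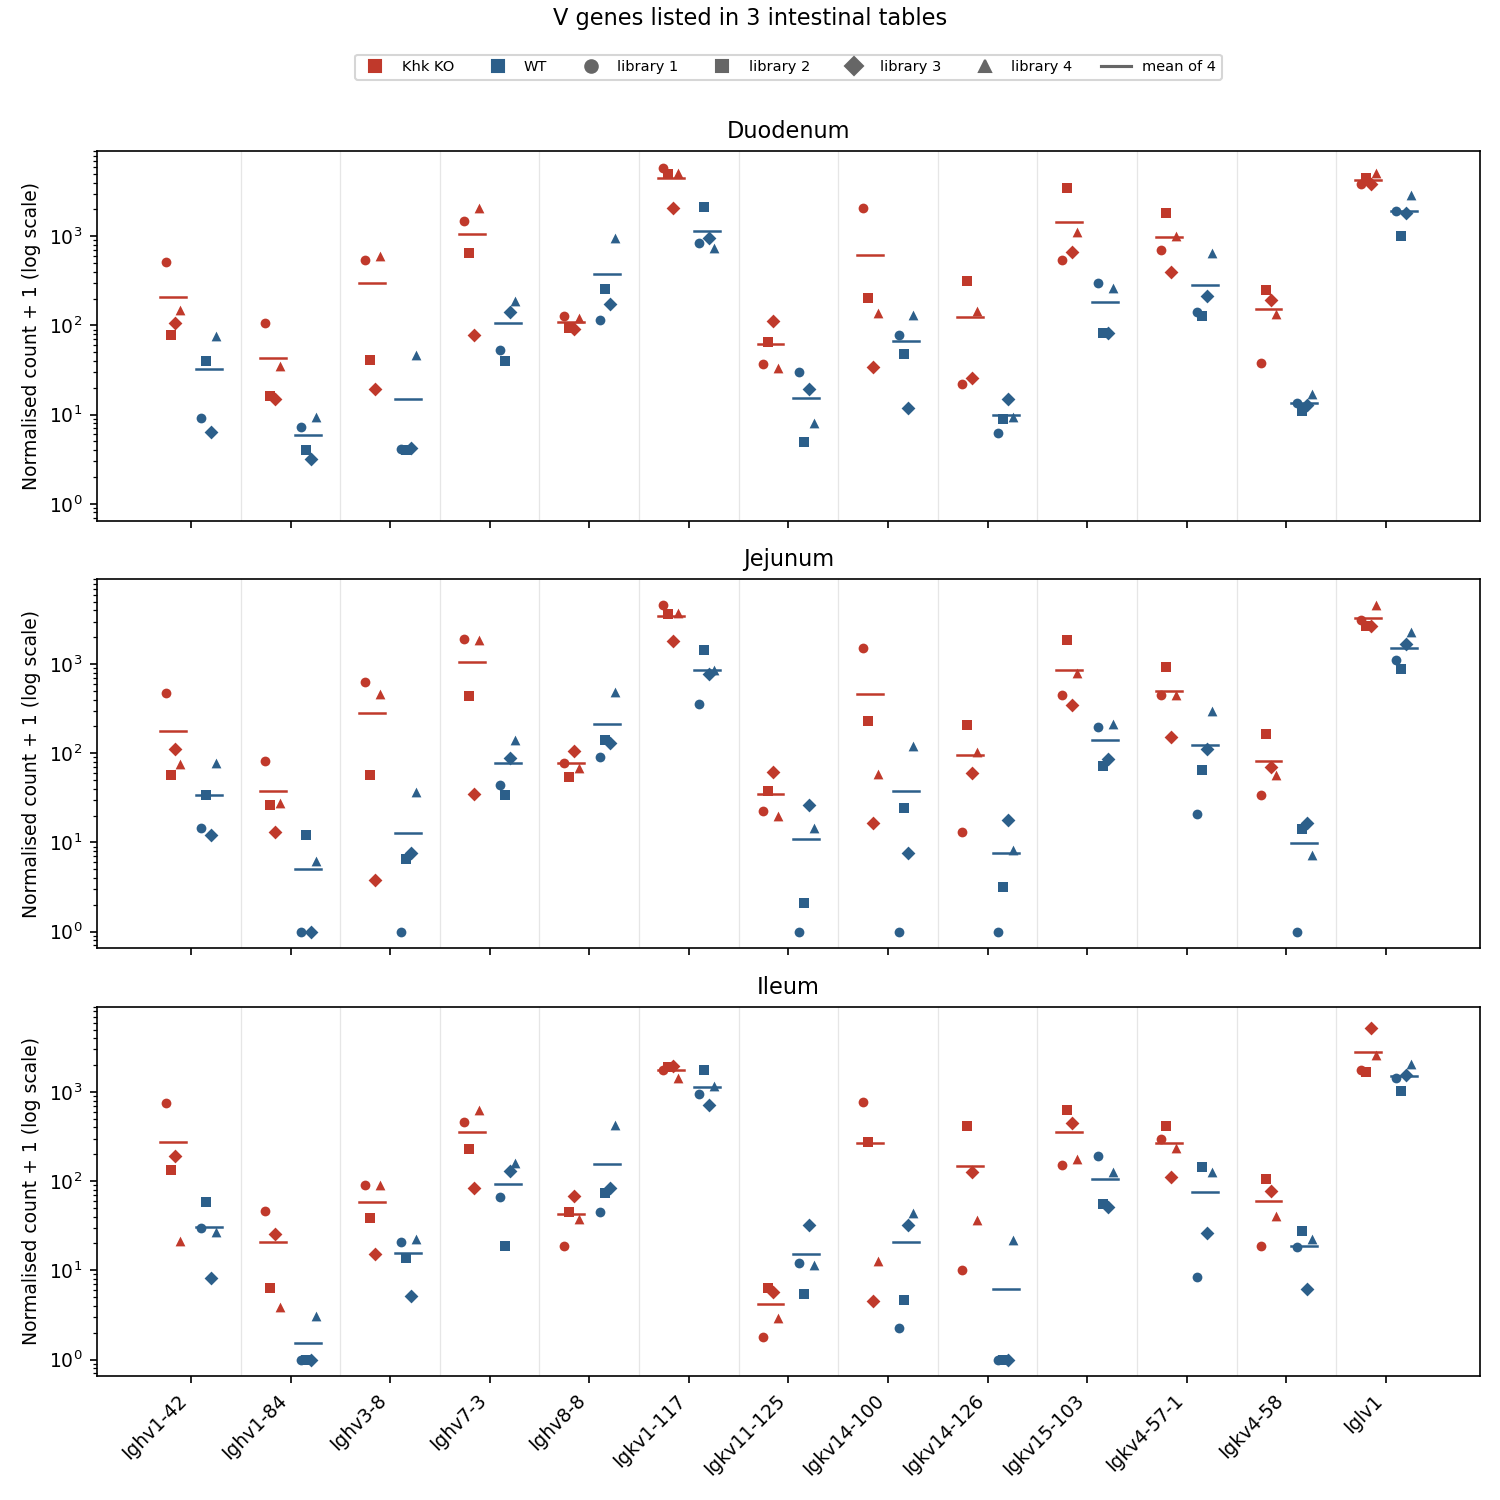
Normalised count plus 1 (log axis) of the 13 V genes listed in duodenum, jejunum and ileum, for each of the 4 Khk KO (red) and 4 WT (blue) libraries, with the symbol giving the library number and the line the mean of 4. Igkv4-58 in duodenum has all Khk KO values (37.0 to 246) above all WT values (9.90 to 16.0), and Ighv8-8 is the gene whose means are lower in Khk KO in each organ.

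Igkv4-58, a kappa V gene, had the smallest adjusted p of the members in duodenum. Igkv4-58 had 37.0, 246, 194 and 134 normalised counts in Khk KO duodenum libraries 1 to 4 and 12.4, 9.90, 11.9 and 16.0 in WT libraries 1 to 4. All 4 Khk KO libraries lay above all 4 WT libraries, with means of 153 ± 89.8 normalised counts in Khk KO and 12.5 ± 2.56 in WT (SD, n = 4). The authors' deposited table gave a log2 fold change of 3.60 and an adjusted p of 3.89e-10. In the edgeR refit it was 3.70 ± 0.54 (SE), with an adjusted p of 0.391. In jejunum, Igkv4-58 stood at 33.4, 163, 70.0 and 56.0 normalised counts in Khk KO libraries 1 to 4 and at 0, 13.2, 15.6 and 6.24 in WT libraries 1 to 4. The groups were again apart, and the authors had not adjusted its p-value. The ileum values of Igkv4-58 were 17.6, 105, 75.6 and 39.5 normalised counts in Khk KO libraries 1 to 4 and 17.4, 26.9, 5.18 and 21.7 in WT libraries 1 to 4. There the groups overlapped, and the authors' deposited table gave a log2 fold change of 1.73 with an adjusted p of 0.0273.

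Igkv1-117 was the most abundant kappa V gene listed in each of the 3 gut segments. Igkv1-117 had 5871, 5009, 2085 and 5092 normalised counts in Khk KO duodenum libraries 1 to 4 and 836, 2102, 952 and 732 in WT libraries 1 to 4. Only Khk KO library 3 and WT library 2 met, with nearly equal values. In jejunum, Igkv1-117 stood at 4639.6, 3609, 1803 and 3774 normalised counts in Khk KO libraries 1 to 4 and at 355, 1445, 769.8 and 848 in WT libraries 1 to 4. The groups were apart there, with means of 3457 ± 1191 normalised counts in Khk KO and 854 ± 449 in WT (SD, n = 4). The authors' deposited table gave a log2 fold change of 2.02 and an adjusted p of 4.19e-05. edgeR gave 1.99 ± 0.43 (SE) with an adjusted p of 0.237. The ileum values of Igkv1-117 were 1777, 1913, 1953 and 1427 normalised counts in Khk KO libraries 1 to 4 and 939, 1765, 716 and 1159 in WT libraries 1 to 4. The ileal difference was smaller. The authors' deposited table put its log2 fold change at 0.63 (adjusted p of 0.0640). Whether the ileal and the jejunal differences differ was not tested.

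Igkv15-103, the only annotated V gene of its kappa family, was called by the authors' deposited tables in all 3 gut segments. Igkv15-103 had 542, 3427, 658 and 1126 normalised counts in Khk KO duodenum libraries 1 to 4 and 297, 82.2, 81.1 and 263 in WT libraries 1 to 4. Khk KO library 2 was far above the rest, and the groups did not overlap. In jejunum, Igkv15-103 stood at 449, 1883, 346 and 793 normalised counts in Khk KO libraries 1 to 4 and at 198, 70.4, 84.7 and 211 in WT libraries 1 to 4. Library 2 was again the highest of Khk KO, and the groups were apart. The ileum values of Igkv15-103 were 152, 629.6, 446 and 174 normalised counts in Khk KO libraries 1 to 4 and 190.2, 54.8, 50.8 and 125 in WT libraries 1 to 4. In ileum WT library 1 exceeded Khk KO libraries 1 and 4. The log2 fold changes in the authors' deposited tables were 2.99, 2.62 and 1.74, with adjusted p of 0.0369, 0.0202 and 0.0499. edgeR gave an adjusted p of 0.958 in duodenum, 0.237 in jejunum and 0.0447 in ileum. With the trend of each library along gene length taken out as an offset, the ileal adjusted p of edgeR was 0.0204. Without 1 ileal library at a time it passed in 2 of 8 fits.

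Igkv14-100 and Igkv14-126, kappa V genes of 1 family, were each carried by a few libraries. Igkv14-100 had 2056, 202, 33.4 and 136 normalised counts in Khk KO duodenum libraries 1 to 4 and 77.2, 46.5, 10.8 and 129 in WT libraries 1 to 4. In jejunum, Igkv14-100 stood at 1533, 229, 15.7 and 57.0 normalised counts in Khk KO libraries 1 to 4 and at 0, 23.1, 6.68 and 119 in WT libraries 1 to 4. The ileum values of Igkv14-100 were 769, 272, 3.54 and 11.6 normalised counts in Khk KO libraries 1 to 4 and 1.24, 3.59, 31.1 and 43.5 in WT libraries 1 to 4. Khk KO library 1 was the highest in all 3 segments, by a wide margin in duodenum and jejunum, and the groups overlapped in each. Without Khk KO library 1 the edgeR log2 fold change of Igkv14-100 fell from 3.36 to 1.01 in duodenum and from 3.61 to 1.39 in jejunum. Igkv14-126 was instead highest in Khk KO library 2. Igkv14-126 had 21.1, 311, 24.7 and 143 normalised counts in Khk KO duodenum libraries 1 to 4 and 5.15, 7.92, 14.1 and 8.36 in WT libraries 1 to 4. In ileum, Igkv14-126 stood at 9.20, 413, 125 and 35.7 normalised counts in Khk KO libraries 1 to 4 and at 0, 0, 0 and 20.7 in WT libraries 1 to 4. In ileum it was at 0 in 3 of the 4 WT libraries, so its fold change rests on WT library 4. The authors' deposited table called it in duodenum (log2 fold change 3.82, adjusted p of 0.0228) and not in ileum (4.81, adjusted p of 0.106), while edgeR called it in ileum with an adjusted p of 0.0395. Without WT library 4 the ileal log2 fold change became 10.22, a value that depends on the prior count, and without Khk KO library 2 it was 3.34.

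The remaining kappa V genes of this group behaved less alike. Igkv4-57-1 had means of 979 ± 614 normalised counts in Khk KO and 281 ± 243 in WT (SD, n = 4) in duodenum. Its means were 495 ± 326 normalised counts in Khk KO and 123 ± 122 in WT (SD, n = 4) in jejunum and 265 ± 127 normalised counts in Khk KO and 75.1 ± 68.8 in WT (SD, n = 4) in ileum, and it passed in no organ in the authors' deposited tables. Igkv11-125 was a gene of low level whose direction turned between segments. The duodenum values of Igkv11-125 were 35.9, 64.7, 111 and 32.7 normalised counts in Khk KO libraries 1 to 4 and 28.8, 3.96, 18.4 and 6.97 in WT libraries 1 to 4. Igkv11-125 had 0.767, 5.40, 4.72 and 1.93 normalised counts in Khk KO ileum libraries 1 to 4 and 11.2, 4.49, 31.1 and 10.4 in WT libraries 1 to 4. The duodenal groups were apart with Khk KO higher, and in ileum 3 of the 4 WT libraries lay above all Khk KO libraries. The log2 fold changes in the authors' deposited tables were 2.09 in duodenum (adjusted p of 0.0883) and -2.18 in ileum, where the p-value was not adjusted. The difference between the segments was not tested.

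Of the heavy chain V genes listed in all 3 segments, Ighv3-8 and Ighv7-3 had the same high libraries. In duodenum, Ighv3-8 stood at 542, 39.5, 18.3 and 602 normalised counts in Khk KO libraries 1 to 4 and at 3.09, 2.97, 3.25 and 46.0 in WT libraries 1 to 4. The jejunum values of Ighv3-8 were 625, 55.9, 2.76 and 455 normalised counts in Khk KO libraries 1 to 4 and 0, 5.50, 6.68 and 35.4 in WT libraries 1 to 4. Khk KO libraries 1 and 4 stood far above libraries 2 and 3 in both segments. In ileum libraries 1 and 4 were again the highest of Khk KO for Ighv3-8, at 89.7 and 89.6 normalised counts. The authors' deposited tables gave Ighv3-8 a log2 fold change of 4.43 in duodenum (adjusted p of 0.212), 4.58 in jejunum (0.133) and 2.0 in ileum (0.0137). Ighv7-3 had 1493, 644, 77.5 and 2061 normalised counts in Khk KO duodenum libraries 1 to 4 and 51.5, 38.6, 141 and 186 in WT libraries 1 to 4. In jejunum, Ighv7-3 stood at 1891, 442, 34.1 and 1867 normalised counts in Khk KO libraries 1 to 4 and at 43.5, 33.0, 86.9 and 140.4 in WT libraries 1 to 4. Ighv7-3 lay within the WT range in Khk KO library 3 and above it in the other 3, in both segments. The authors' deposited table called Ighv7-3 in jejunum alone, with an adjusted p of 0.0441 and a log2 fold change of 3.80, and whether it differed between organs was not tested.

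Ighv1-42 and Ighv1-84 belong to the largest heavy chain family. The duodenum values of Ighv1-42 were 509, 77.3, 105 and 147 normalised counts in Khk KO libraries 1 to 4 and 8.23, 38.6, 5.41 and 75.3 in WT libraries 1 to 4. Ighv1-42 had 749, 132, 192 and 20.2 normalised counts in Khk KO ileum libraries 1 to 4 and 28.6, 56.6, 7.25 and 25.9 in WT libraries 1 to 4. Khk KO library 1 held the highest value of Ighv1-42 in every segment. edgeR called it in ileum, at 3.21 ± 0.91 (SE) with an adjusted p of 0.0402, and without Khk KO library 1 the ileal log2 fold change was 1.91 and did not pass. In duodenum, Ighv1-84 stood at 105, 15.1, 14.0 and 34 normalised counts in Khk KO libraries 1 to 4 and at 6.18, 2.97, 2.16 and 8.36 in WT libraries 1 to 4. The groups were apart, and the authors' deposited table called Ighv1-84 in duodenum with a log2 fold change of 3.06 and an adjusted p of 0.0120. In ileum Ighv1-84 was at 0 in WT libraries 1 to 3, at 2.07 normalised counts in WT library 4 and at 2.89 to 45.2 in Khk KO.

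Ighv8-8 was the V gene with lower Khk KO means in all 3 segments. The duodenum values of Ighv8-8 were 126, 93.3, 90.4 and 120.5 normalised counts in Khk KO libraries 1 to 4 and 114, 252, 173 and 958 in WT libraries 1 to 4. Ighv8-8 had 77.1, 53.3, 106 and 67.4 normalised counts in Khk KO jejunum libraries 1 to 4 and 89.3, 139, 128 and 484 in WT libraries 1 to 4. In ileum, Ighv8-8 stood at 17.6, 44.1, 67.3 and 36.6 normalised counts in Khk KO libraries 1 to 4 and at 43.5, 71.9, 82.9 and 424 in WT libraries 1 to 4. WT library 4 was the highest in each segment, and the groups overlapped in each. The authors' deposited tables gave log2 fold changes of -1.80, -1.47 and -1.91 and called none. Without WT library 4 the edgeR values of Ighv8-8 shrank to -0.60, -0.66 and -0.70.

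Iglv1 had groups that were apart in duodenum and in jejunum. In the mouse this lambda V segment is joined mostly to the lambda 1 and 3 J and C segments. The duodenum values of Iglv1 were 3844, 4475, 3891 and 5072 normalised counts in Khk KO libraries 1 to 4 and 1939, 1003, 1825 and 2877 in WT libraries 1 to 4. Iglv1 had 3133, 2662, 2681 and 4576 normalised counts in Khk KO jejunum libraries 1 to 4 and 1112, 872, 1684 and 2316 in WT libraries 1 to 4. The 4 libraries of Khk KO lay above the 4 of WT in both, with log2 fold changes of 1.18 and 1.12 in the authors' deposited tables (adjusted p of 0.00523 and 0.0286). edgeR gave 1.31 ± 0.28 (SE) with an adjusted p of 0.958 and 1.11 ± 0.31 (SE) with 0.237. Iglj1, a lambda J segment, had duodenal values of 74.6 to 92.4 normalised counts in Khk KO and 11.9 to 71.8 in WT, also apart, with an adjusted p of 0.520 in the authors' deposited table. Iglv3 had means of 122 ± 38.7 normalised counts in Khk KO and 71.4 ± 21.3 in WT (SD, n = 4) in duodenum and overlapping groups.

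Beyond the recurring genes, the kappa family Igkv4 supplied the most duodenal calls. Of its 26 annotated genes, 8 were listed in duodenum, 7 in jejunum and 3 in ileum, all higher, and the authors' deposited tables called 5, 2 and 1. The duodenal calls were Igkv4-53, Igkv4-58, Igkv4-59, Igkv4-68 and Igkv4-79, of which Igkv4-53, Igkv4-59 and Igkv4-79 were named after their values were seen. In duodenum, Igkv4-68 stood at 848, 86.5, 147 and 1057 normalised counts in Khk KO libraries 1 to 4 and at 28.8, 16.8, 43.3 and 79.5 in WT libraries 1 to 4. Its WT values were all below its Khk KO values, with a log2 fold change of 3.66 and an adjusted p of 0.0229 in the authors' deposited table. Igkv4-59 in duodenum had Khk KO values of 306 to 1695 normalised counts, and its WT values lay close together at 243 to 264. Igkv13-84, also picked after its values were seen, had means of 175 ± 126 normalised counts in Khk KO and 19.0 ± 8.67 in WT (SD, n = 4). The authors' deposited table gave it an adjusted p of 3.78e-07. None of the 10 annotated Ighv5 genes and none of the 9 annotated Igkv3 genes were listed in any gut segment. They are the largest families with none listed, picked after the values were seen. Smaller families, such as Ighv14 with 4 annotated genes, also had none. The family Ighv1, with 53 annotated genes, had 14 listed in duodenum (12 higher), 15 in jejunum (all higher) and 9 in ileum (5 higher).

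The most abundant heavy chain V genes listed in duodenum were Ighv1-53, Ighv1-64, Ighv6-3 and Ighv1-26. The duodenum values of Ighv1-53 were 4075, 1428, 1976 and 1169 normalised counts in Khk KO libraries 1 to 4 and 396, 832, 515 and 1553 in WT libraries 1 to 4. Ighv1-26 had 1186, 1533, 1041 and 1218 normalised counts in Khk KO duodenum libraries 1 to 4 and 144, 415, 411 and 885 in WT libraries 1 to 4. Ighv1-26 had groups that were apart, and Ighv1-53 did not. In jejunum the same 4 genes led the heavy chain V list, and Ighv1-26 was called in the authors' deposited table with a log2 fold change of 1.5 and an adjusted p of 0.00189. In jejunum, Ighv1-26 stood at 1153, 1286, 813 and 1738 normalised counts in Khk KO libraries 1 to 4 and at 226, 439.7, 413 and 684 in WT libraries 1 to 4. All Khk KO values lay above all WT values. Ighv1-7 was called in both segments, with means of 314 ± 273 normalised counts in Khk KO and 25.7 ± 15.6 in WT (SD, n = 4) in duodenum. Its means in jejunum were 243 ± 177 normalised counts in Khk KO and 42.3 ± 21.7 in WT (SD, n = 4). The authors' deposited tables gave Ighv1-7 log2 fold changes of 3.61 and 2.52, with adjusted p of 0.0256 and 0.00321. The remaining calls were Ighv6-6 in duodenum and Ighv1-80, Igkv4-59, Igkv4-91 and Igkv16-104 in jejunum, all higher, with log2 fold changes in the authors' deposited tables of 2.77, 1.32, 1.60, 1.83 and 1.07.

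Among constant regions, Ighg3 was the single call in duodenum. It encodes the heavy chain constant region of IgG3 (chromosome 12, 113356224 to 113361232, minus strand). The duodenum values of Ighg3 were 63.4, 32.8, 36.6 and 47.1 normalised counts in Khk KO libraries 1 to 4 and 22.6, 5.94, 11.9 and 15.3 in WT libraries 1 to 4. All Khk KO values lay above all WT values, with means of 45 ± 13.7 normalised counts in Khk KO and 14.0 ± 6.97 in WT (SD, n = 4). The authors' deposited table gave a log2 fold change of 1.68 and an adjusted p of 0.0270, and edgeR gave 1.85 ± 0.38 (SE) with an adjusted p of 0.930. Ighm, the constant region of IgM, was more abundant and overlapped between groups. Ighm had 449.9, 489, 747 and 321 normalised counts in Khk KO duodenum libraries 1 to 4 and 285, 301, 428 and 358 in WT libraries 1 to 4. Its adjusted p in the authors' deposited table was 0.505. Ighe, the constant region of IgE, was listed at 2.62 to 11.8 normalised counts in Khk KO and 0 to 4.12 in WT, and its p-value was not adjusted. Per length, the duodenal levels were 12.9 FPKM for Ighm, 0.871 for Ighg3 and 0.231 for Ighe as Khk KO means. Igha and Igkc, the constant regions of IgA and of kappa light chains, were not listed in duodenum or jejunum.

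In ileum the 3 listed constant regions were lower in Khk KO, and Igha and Igkc had the highest levels of the members listed there. Igha (chromosome 12, 113254830 to 113260236, minus strand) and Igkc (chromosome 6, 70726435 to 70726966, plus strand) had WT means of 2523 and 7925 FPKM. In ileum, Igha stood at 77615, 121092, 117777 and 67176 normalised counts in Khk KO libraries 1 to 4 and at 145640.0, 149623, 115311 and 152046 in WT libraries 1 to 4. WT library 3 lay within the Khk KO range, and the other WT libraries lay above it. The authors' deposited table gave Igha a log2 fold change of -0.55 with an adjusted p of 0.0489, and edgeR gave -0.55 ± 0.21 (SE) with an adjusted p of 0.10, past the threshold in the former alone. The ileum values of Igkc were 44908, 67617, 68154 and 36341 normalised counts in Khk KO libraries 1 to 4 and 96111, 84759, 74474 and 97309.9 in WT libraries 1 to 4. The groups were apart, with means of 54255 ± 16124 normalised counts in Khk KO and 88163 ± 10737 in WT (SD, n = 4). Igkc fell by 0.70 on the log2 scale in both analyses, with an adjusted p of 0.0481 by edgeR and of 0.0123 as the authors' deposited table has it. With the length trend taken out, the log2 fold change of Igkc was -0.096 and that of Igha -0.17, and neither passed. Leaving out 1 ileal library at a time, Igkc passed by edgeR in 1 of 8 fits.

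Iglc2, the lambda 2 constant region (chromosome 16, 19198396 to 19200351, minus strand), and Iglv2, the V segment joined mostly to it, fell together in ileum. Iglc2 had 473, 288, 249 and 425 normalised counts in Khk KO ileum libraries 1 to 4 and 992, 3019, 656 and 1534 in WT libraries 1 to 4. Every Khk KO value of Iglc2 lay below every WT value. The edgeR log2 fold change was -2.12 ± 0.43 (SE) with an adjusted p of 0.0139, and the authors' deposited table gave -2.11 with 0.00117. Leaving out 1 ileal library at a time, Iglc2 passed by edgeR in 8 of 8 fits, with an adjusted p of at most 0.0473. With the length trend taken out it was -1.55 and its adjusted p by edgeR was 0.116. In ileum, Iglv2 stood at 182, 53.1, 75.6 and 245 normalised counts in Khk KO libraries 1 to 4 and at 232, 1943, 251 and 1300.1 in WT libraries 1 to 4. WT libraries 2 and 4 held most of the Iglv2 signal, and WT libraries 1 and 3 lay close to the highest Khk KO library. Its edgeR log2 fold change was -2.77 ± 0.73 (SE) with an adjusted p of 0.0327, which passed in 3 of 8 fits that left out 1 library.

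**Figure D2:**
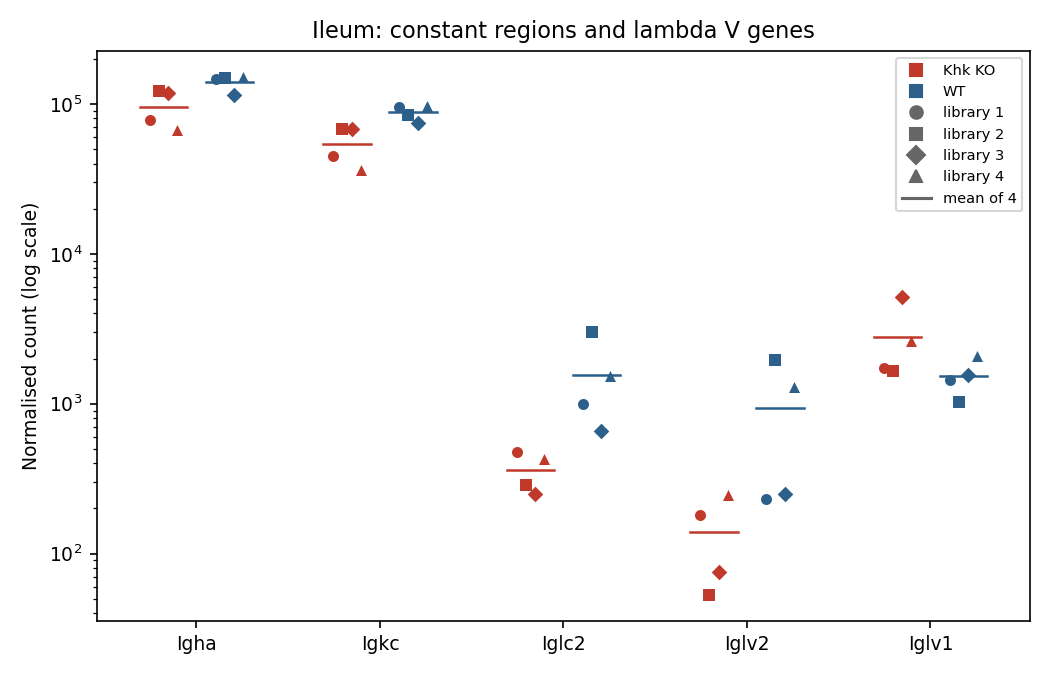
Normalised count (log axis) of 3 constant regions and 2 lambda V genes in the 4 Khk KO (red) and 4 WT (blue) ileum libraries, with the symbol giving the library number and the line the mean of 4. For Iglc2 the Khk KO values (249 to 473) all lie below the WT values (656 to 3019), while the Iglv1 mean is higher in Khk KO.

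Within the lambda locus the V genes had opposite directions. The ileum values of Iglv1 were 1739, 1661, 5182 and 2608 normalised counts in Khk KO libraries 1 to 4 and 1436, 1025, 1543 and 2081 in WT libraries 1 to 4. Khk KO library 3 was the highest, and without it the edgeR log2 fold change of Iglv1 went from 0.86 to 0.40. The authors' deposited table called Iglv1 higher in ileum (adjusted p of 0.0467), and edgeR did not (0.110). Of the counts of Iglv1 and Iglv2 together, Iglv2 made up 9.46%, 3.10%, 1.44% and 8.58% in Khk KO libraries 1 to 4 and 13.9%, 65.5%, 14.0% and 38.5% in WT libraries 1 to 4. The means of this share were 5.64 ± 3.97% in Khk KO and 33.0 ± 24.6% in WT (SD, n = 4), and the groups were apart. Iglc2 made up 0.747 ± 0.410% of Igkc and Iglc2 counts in Khk KO and 1.72 ± 1.18% in WT (SD, n = 4), with overlapping groups. These shares are of normalised counts and were not tested.

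Ileal V genes were otherwise split. Ighv1-66 was the V gene with the smallest edgeR adjusted p among those lower in Khk KO outside the lambda locus. Ighv1-66 had 17.6, 15.3, 62.6 and 55.9 normalised counts in Khk KO ileum libraries 1 to 4 and 57.2, 561, 103 and 628 in WT libraries 1 to 4. WT libraries 2 and 4 were far above the rest, and WT library 1 lay within the Khk KO range. edgeR gave -3.23 ± 0.78 (SE) with an adjusted p of 0.0248, which passed in 3 of 8 fits that left out 1 library. The heavy chain V genes with the highest mean counts listed in ileum were Ighv2-9-1 and Ighv1-81, with means of 449 ± 478 normalised counts in Khk KO and 70.0 ± 74.6 in WT (SD, n = 4) and 441 ± 137 normalised counts in Khk KO and 1038 ± 609 in WT (SD, n = 4). Their edgeR adjusted p-values were 0.0780 and 0.0678. With the length trend taken out, edgeR called 2 members in ileum, Ighv3-8 with an adjusted p of 0.0443 and Igkv15-103 with 0.0204, both higher. In that fit 476 of the 5187 genes listed in ileum were called.

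Only 3 members were listed in liver, where Igha and Igkc stood far below their ileal levels. In liver, Igha stood at 82.5, 80.3, 42.8 and 83.6 normalised counts in Khk KO libraries 1 to 4 and at 89.7, 76.8, 123 and 206 in WT libraries 1 to 4. The liver values of Igkc were 71.9, 118, 53.5 and 149 normalised counts in Khk KO libraries 1 to 4 and 81.0, 97.4, 293 and 266 in WT libraries 1 to 4. Igkv1-110, a kappa V gene, had 0 to 5.02 normalised counts in Khk KO and 1.09 to 23.7 in WT. The groups overlapped for all 3, with the highest values in WT libraries 3 and 4. Adjusted p-values as listed in the authors' deposited table were 0.0881 for Igha, 0.101 for Igkc and 0.0700 for Igkv1-110, and none passed. Per length, WT ileum held 631 times the FPKM of Igha in WT liver and 265 times that of Igkc, across tables that were normalised separately.

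Summed over the listed segments of a locus, heavy chain and kappa V counts of duodenum and jejunum were 3.07 to 3.70 times as high in Khk KO as in WT. The 22 listed heavy chain V genes of duodenum summed to 15909, 13261, 7744 and 17515 normalised counts in Khk KO libraries 1 to 4 and 2431, 3958, 3064 and 8125 in WT libraries 1 to 4. Khk KO library 3 was the lowest of its group and fell under WT library 4. The 27 listed kappa V genes of duodenum summed to 19059, 19172, 9003 and 17084 normalised counts in Khk KO libraries 1 to 4 and 3543, 5069, 4133 and 5598 in WT libraries 1 to 4, with no overlap. In jejunum the 23 heavy chain V genes summed to 16411, 11102, 7656 and 16299 normalised counts in Khk KO libraries 1 to 4 and 2227, 4003, 3482 and 7058 in WT libraries 1 to 4. The 20 kappa V genes of jejunum summed to 12969.6, 11726, 5661 and 8951 normalised counts in Khk KO libraries 1 to 4 and 1528, 2679.9, 3015 and 3389 in WT libraries 1 to 4. Khk KO library 3 was the lowest of its group for each of these 4 sums, and the groups were apart for all but duodenal heavy chain V genes. In ileum the 15 listed heavy chain V genes had means of 2167 ± 322 in Khk KO and 2151 ± 1231 in WT (SD, n = 4), a ratio of 1.01, and the 10 listed kappa V genes had means of 2990 ± 697 in Khk KO and 1772 ± 696 in WT (SD, n = 4), a ratio of 1.69. WT library 1 held the lowest WT value of the 4 duodenal and jejunal sums. Without it, a choice made after seeing the data, the heavy and kappa ratios were 2.70 and 3.26 in duodenum, 2.65 and 3.25 in jejunum and 0.838 and 1.56 in ileum, so that the ileal heavy chain ratio moved to the other side of 1. The sums hold only listed genes, so they carry the selection made by the tables and no test.

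Most V genes drew their signal from few libraries. In the median V member, the highest Khk KO library held 48.0% of the summed Khk KO signal in duodenum, 46.8% in jejunum and 46.3% in ileum. For all other listed genes whose mean reached 10 normalised counts, the same median was 28.6%, 28.7% and 27.9%. In WT the V members had 47.0%, 48.1% and 47.8%, against 31.7%, 31.3% and 30.9%. Equal shares over 4 libraries would be 25%. Both genotypes thus had V genes concentrated in single libraries, and the highest library differed from gene to gene. In duodenum, Khk KO libraries 1, 2, 3 and 4 were the highest of Khk KO for 15, 12, 6 and 18 of the 51 V members, and WT libraries 1, 2, 3 and 4 were the highest of WT for 8, 6, 6 and 31.

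Over immunoglobulin members, Khk KO libraries with the same number resembled each other across segments, and WT libraries did so less evenly. For the 34 members listed in both duodenum and jejunum, each library's deviation from its genotype mean, in log2 of the normalised count plus 1, was compared between the organs. In Khk KO, Pearson's r across these 34 genes was 0.89 to 0.97 for libraries of the same number and -0.59 to 0.045 for libraries of different numbers. In WT it was -0.054 to 0.69 for the same number, with WT library 1 the lowest, and -0.50 to 0.058 for different numbers. For the 398 other genes listed in both tables whose mean reached 10 normalised counts, Khk KO libraries of the same number had -0.014 to 0.61 and those of different numbers -0.53 to 0.52. WT libraries had 0.38 to 0.80 and -0.75 to 0.50. The 34 genes are not independent replicates, and since 4 deviations sum to 0, values between different numbers lean negative. Duodenum and ileum, over 17 members, had 0.63 to 0.88 in Khk KO for the same number and -0.60 to 0.19 for different numbers. In WT these were 0.18 to 0.45 and -0.55 to 0.49, so that the ranges overlapped. Jejunum and ileum, over 15 members, had 0.70 to 0.90 against -0.69 to 0.049 in Khk KO and 0.20 to 0.49 against -0.44 to 0.17 in WT. For other genes, same-numbered duodenum and ileum libraries had 0.020 to 0.20 in Khk KO and 0.14 to 0.72 in WT. Those of jejunum and ileum had -0.14 to 0.23 and 0.23 to 0.65. The library with the highest value had the same number in duodenum and jejunum for 25 of the 34 members in Khk KO and 24 in WT. This held for 9 of 17 in Khk KO and 10 in WT for duodenum and ileum, and for 9 of 15 and 8 for jejunum and ileum. The labels do not say what a number marks.

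**Figure D3:**
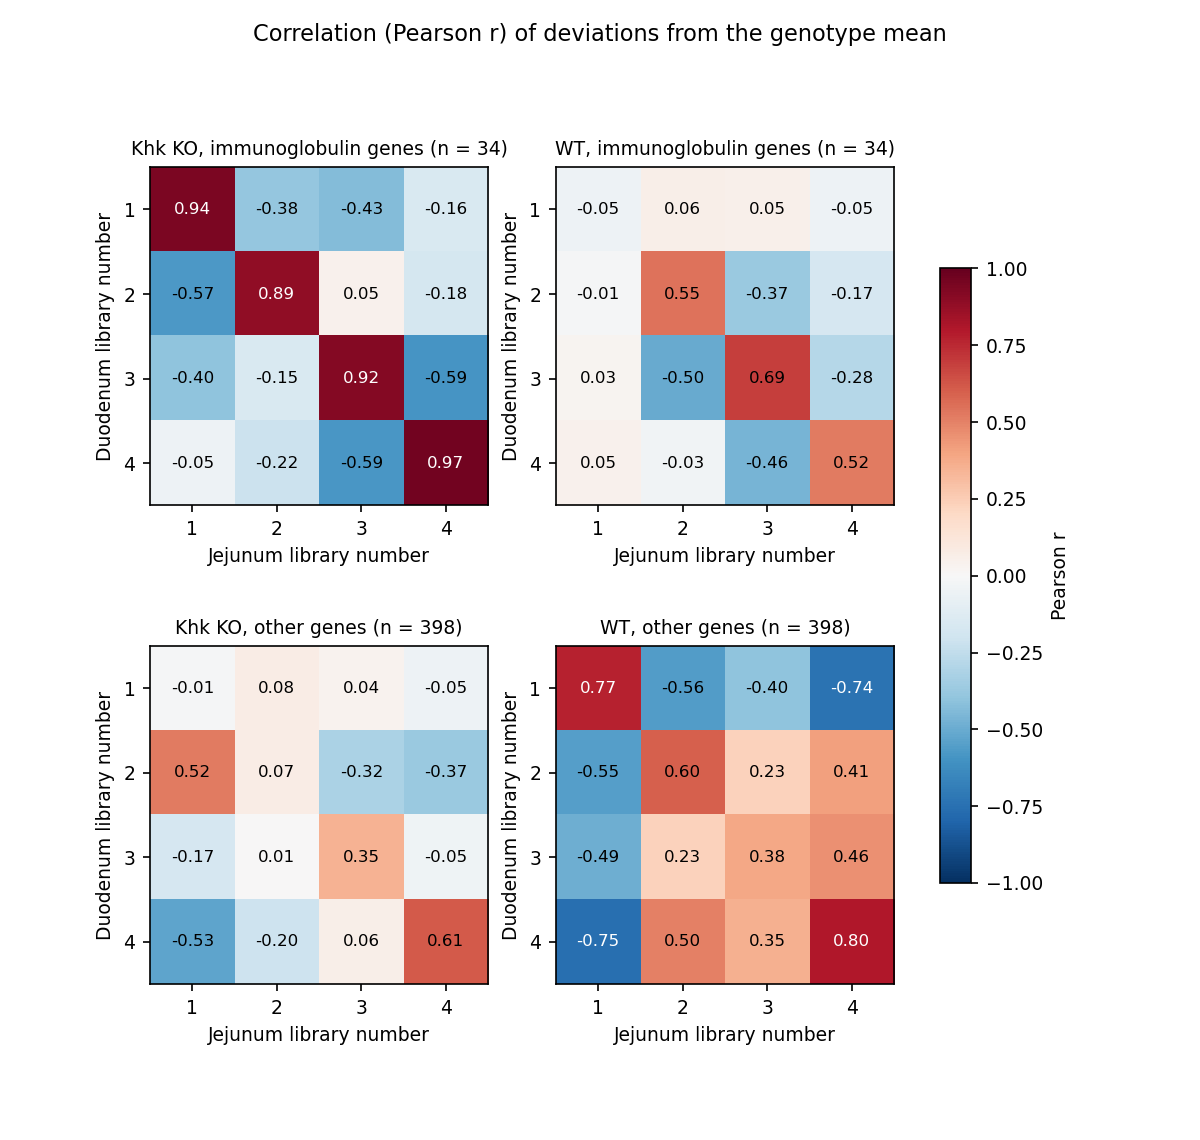
Pearson's r, across genes, between each duodenum library (rows) and each jejunum library (columns) of the same genotype, for deviations from the genotype mean in log2 of the normalised count plus 1, with immunoglobulin members above and all other genes listed in both tables below. In Khk KO the members give 0.89 to 0.97 on the diagonal, where library numbers are equal, and at most 0.045 elsewhere.

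Listed V genes were spread along much of both large loci, but not the part of the heavy chain locus nearest to Ighm. Of the 113 annotated heavy chain V genes, which lie 158 to 2579.6 kb from Ighm, the 22 listed in duodenum lay 733 to 2560.3 kb away, 9 of them nearer to Ighm than the median annotated V gene and 13 as far or farther. In jejunum the split of the 23 listed was 8 and 15, and in ileum that of the 15 listed was 6 and 9. The nearest listed heavy chain V gene lay 376 kb from Ighm in jejunum and 349 kb in ileum. Of the 100 annotated kappa V genes, the listed ones split 11 and 16 in duodenum, 8 and 12 in jejunum and 3 and 7 in ileum. Lower and higher genes lay among each other along both loci.

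**Figure D4:**
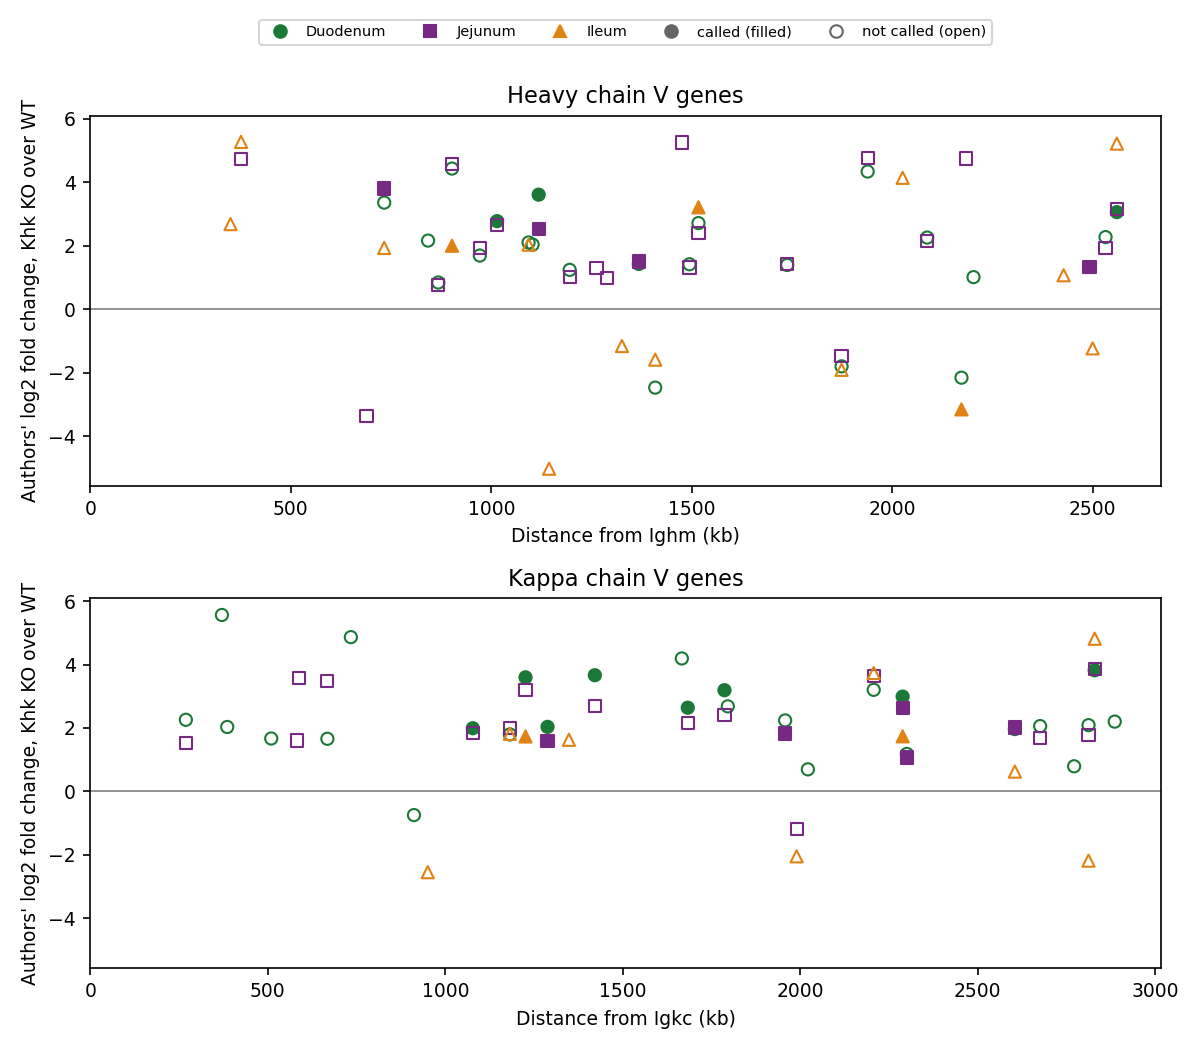
Log2 fold change in the authors' deposited tables of listed heavy chain V genes (upper panel) and kappa V genes (lower panel) against distance in kb from the constant region Ighm or Igkc, with circles for duodenum, squares for jejunum and triangles for ileum, filled where the adjusted p was under 0.05. Duodenum and jejunum points lie mostly above 0, and ileum points lie on both sides. In the upper panel no duodenum point lies nearer to Ighm than 733 kb.

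Other genes of B and plasma cells gave only part of the same picture. Of a list of 35 such genes, 5 were listed in duodenum, all higher in Khk KO, with summed levels of 1042 to 1159.6 normalised counts in Khk KO and 495 to 919 in WT, and the authors' deposited table called 0. They included Mzb1, a chaperone of antibody assembly (log2 fold change 0.46, adjusted p of 0.515 in the authors' deposited table), and Irf4, a regulator of plasma cell formation (0.47, adjusted p of 0.505). In jejunum Prdm1, which drives plasma cell differentiation, was the single gene listed, higher and not called (adjusted p of 0.151 in the authors' deposited table). In ileum 6 were listed, 2 higher and 4 lower, with overlapping summed levels of 8094 to 11105 normalised counts in Khk KO and 7671 to 10813 in WT. Abundant genes carry this sum, as Cd38 had means of 4557 in Khk KO and 2797 in WT and Mzb1 had 295 and 477. The authors' deposited table called Cd38 (0.70, adjusted p of 0.0220) and Prdm1 (0.46, 0.0251) higher and Mzb1 (-0.69, 0.0388) lower there, which is 8.57% of the list against 15.6% of all genes. Of these 3, edgeR also called Cd38 and Prdm1, and with the length trend taken out Cd38. In liver 6 were listed, all lower, and the authors' deposited table called Derl3, Fkbp11, Cd79b and Xbp1, with log2 fold changes of -1.75, -1.35, -1.52 and -0.42. This is 11.4% of the list against 23.9% of all genes. These list shares count every gene of the list, tested or not, while shares of all genes count only those the authors had adjusted over. Of these 4, edgeR also called Derl3 and Fkbp11, and 0 passed with the length trend taken out. The summed level of the 6 was 6079.5 to 7098 normalised counts in Khk KO and 8355 to 9534 in WT. Xbp1 alone had means of 3054 in Khk KO and 4094 in WT, while Cd79b had 15.4 and 44.2. Abundant genes thus carry the sum, and all 6 were listed because they differed. The sum is not read as a level of B or plasma cells. The B cell marker Ms4a1 was not listed in any organ, and the part of cell number in the immunoglobulin values was not tested.

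Genes of IgA export and of lymphocyte homing were called at a share near that of all genes in liver and ileum, though the bases of these shares differ. The share of a list counts every gene on it, tested or not. The share of all genes counts only those the authors had adjusted over. Of 19 such genes, 3 were listed in duodenum and 5 in jejunum, and the authors' deposited tables called 0 in each. In ileum 7 were listed, and the authors' deposited table called Itga4, an integrin subunit of gut homing, higher (1.02, adjusted p of 0.0122) and called Fcgrt, the neonatal Fc receptor, and Ccl25, a chemokine of the small intestine, lower (-0.73 and -0.60, adjusted p of 0.00329 and 0.0294), 15.8% of the list against 15.6% of all genes. Of these, edgeR also called Fcgrt and Ccl25, not Itga4 (adjusted p of 0.0601), and with the length trend taken out Ccl25 alone of the 3 passed. In liver 5 were listed, and the authors' deposited table called Pigr, the receptor that carries polymeric IgA across epithelia, Ccl25 and Itga4 higher (0.61, 0.69 and 1.21) and Fcgrt lower (-0.48), 21.1% of the list against 23.9% of all genes. Itga4 was not called by edgeR there (adjusted p of 0.0845). With the length trend taken out only Pigr of these 4 passed, at an edgeR log2 fold change of 0.73, while Ccl25 had 0.094, Itga4 0.32 and Fcgrt 0.092, the opposite direction to its value in the authors' deposited table. Of 14 lymphoid follicle genes, 3 were listed in liver and 1 in each gut segment. S1pr2 in liver was the only call (-0.75, adjusted p of 0.0224 in the authors' deposited table), 7.14% of the list against 23.9% of all genes. edgeR did not call S1pr2 there (adjusted p of 0.0666), though it did with the length trend taken out (0.00589). Of 15 T cell genes, 0 were listed in duodenum, 1 in jejunum (higher, not called), 3 in liver and 6 in ileum. All 6 ileal ones were lower, with summed levels of 239 to 908 normalised counts in Khk KO and 559 to 1439 in WT. The authors' deposited table called Cd2 (-1.36, adjusted p of 0.0489), 6.67% of the list against 15.6% of all genes, and edgeR did not (0.0924). In liver Zap70 was called, lower (-0.82, adjusted p of 0.00212 in the authors' deposited table), 6.67% of the list against 23.9% of all genes. Zap70 was also called by edgeR (adjusted p of 0.0264), but not with the length trend taken out (0.266). The lower T cell genes in ileum stood beside the lower constant regions, and their part in them was not tested.

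The tissue labels were set against marker genes as far as these were listed. Of the 4 liver markers, Ttr, Apoa1 and Serpina1a were listed in liver, all lower in Khk KO, with summed levels of 202204 to 213188 normalised counts in Khk KO and 237568 to 395413 in WT. Apoa1, an apolipoprotein that the gut epithelium makes too, was also listed as lower in Khk KO in duodenum (-0.83 in the authors' deposited table, adjusted p of 0.357), jejunum (-0.78, 0.134) and ileum (-1.09, 0.00261), and Ttr in jejunum (-0.82, not adjusted). WT library 1 had the highest Apoa1 value of each gut segment, 482625 normalised counts in duodenum, 408134 in jejunum and 97947 in ileum, where the other WT libraries reached at most 249121, 197224 and 54247. Of the 4 enterocyte markers, Fabp2 was listed in ileum and called lower (-0.88 in the authors' deposited table), and Fabp1 in liver, where hepatocytes express it, also called lower (-0.47, adjusted p of 0.0163). With the length trend taken out, none of the authors' calls among these markers passed. The lower Apoa1 stood beside the mostly higher V genes in duodenum and jejunum, and the lower Apoa1 and Fabp2 beside the split V genes in ileum. The part of Apoa1 and Fabp2 in the immunoglobulin values was not tested. The markers of single gut segments, Cybrd1, Gata4, Fabp6 and Slc10a2, were listed in none of the tables, so that the segments could not be checked with them.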

How the data were processed

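Polyadenylated RNA of 32 libraries, 4 per genotype and organ, was measured by RNA sequencing. Reads were aligned with HISAT2 2.0.5 to GRCm38 (mm10), per the submitters' processing notes, and the counting tool and the authors' test are not given in the sources used here. Both directional and non-directional chemistry are named in the labels, and which was used is unknown. Per the file headers, the authors deposited for each organ the read counts of genes and a normalised signal, which is the count divided by a size factor per library and is called the normalised count here. The authors also deposited FPKM values, which were used only to compare levels per length and for the library totals they imply. The log2 fold change, with WT as the base, the p-value and the Benjamini-Hochberg adjusted p-value in each table are those the authors deposited. The tables list only genes with an unadjusted p under 0.05, and the ranks of the p-values imply that the authors' adjustment covered 15615 duodenum, 9881 jejunum, 16034 ileum and 18225 liver genes. Members with an adjusted value of exactly 1 (4 in duodenum, 17 in jejunum, 4 in ileum) were read as not adjusted.

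Here the read counts of each organ's whole table were fitted with edgeR 4.0.16 in R 4.3.3 (TMM, filterByExpr, quasi-likelihood F test between genotypes), with Benjamini-Hochberg adjustment over the authors' number of genes. The SE is the log2 fold change divided by the square root of F. The scripts were tested on simulated data. DESeq2 1.42.0, the authors' size factors, no filter on low counts, adjustment over the genes of the table, the trend with gene length taken out (lowess, span 0.5), the replicate number as a block and leaving out each library were tried as alternatives. Other steps used Python 3.11.15 with matplotlib 3.10.9, pandas 2.3.3, numpy 2.4.6 and scipy 1.17.1. The 48 pairs of libraries within a group had a chi-square per degree of freedom of 11.5 or more, so no library was counted as a repeat. Named members are the constant regions, per organ and chain the 4 V, D or J segments with the highest mean and up to 2 largest rises and 2 largest falls among the authors' calls, and every member listed in 3 organs. Of the marker lists, the genes the authors called are named. 1 gene of the B and plasma cell list is not reported here. The members, the lists and this rule were chosen with earlier results of these data known. Not every gene the rule selects is described.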

Additional observations from a re-analysis of the deposited data

Results flagged for a closer look

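Of 138 groups of 4 libraries checked over the named members, 13 had a library far from the other 3. The limit used flags about 1 in 20 groups of independent, normally distributed values. Listed V genes were concentrated in single libraries, and the same libraries and genes recur over these groups. The 13 are therefore not read as an excess. WT library 4 was the high one for Ighv8-8 in duodenum (958 normalised counts), jejunum (484) and ileum (424), where the next WT values were 252, 139 and 82.9. It was also the high one for Ighv1-64 (987 against 167) and Ighv3-8 (46.0 against 3.25) in duodenum, and the only WT library above 0 for Ighv1-84 (2.07) and Igkv14-126 (20.7) in ileum. Khk KO library 1 was far above the other Khk KO libraries for Igkv14-100 in duodenum (2056 against 202) and jejunum (1533 against 229), and for Ighv1-42 in duodenum (509 against 147) and jejunum (468 against 111). For Igkv1-117 in duodenum WT library 2 stood at 2102, with the next WT value at 952. For Igha in liver, Khk KO library 3 was low, at 42.8 where the next Khk KO value was 80.3. Except for Igha in liver, all of these are V genes.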

How the results depend on the processing

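With DESeq2 in place of edgeR, 16 members passed the threshold in duodenum, 19 in jejunum and 15 in ileum, against 0, 0 and 7. Over all listed genes DESeq2 called 37, 347 and 3520, against 1, 1 and 2221 by edgeR. With adjustment over the genes of the table, which are all selected at an unadjusted p under 0.05, edgeR called 1, 28 and 23. Of all genes edgeR tested, 698 of 1406 in duodenum, 1675 of 2043 in jejunum and 4550 of 4788 in ileum had an unadjusted p under 0.05. These counts are therefore not read as a result about the members. Without a filter on low counts edgeR called 11 members in ileum, and 2 once the length trend was removed. Of the 5187 genes listed in ileum, 476 were called once the length trend was removed. Leaving out 1 library at a time gave 1 to 12 in ileum, 0 to 1 in duodenum and in liver and 0 to 0 in jejunum, with the ileal 1 without Khk KO replicate 2 and the 12 without WT replicate 1. These calls come from genes that were selected on all 8 libraries. Apart from DESeq2 and the length trend, no share of all genes is given for these settings, so their member counts stand without a background. In the fits with the replicate number as a block, edgeR called 6 members in ileum and 0 in each other organ, and with the block and the length trend taken out together 1 in jejunum and 4 in ileum. In no organ did all 4 pairs of same-numbered Khk KO and WT libraries correlate above 0.1, with values of -0.16 to -0.011 (ileum), -0.096 to 0.065 (liver), -0.27 to 0.23 (duodenum) and 0.050 to 0.31 (jejunum), so they are taken to share only a number, although all 4 jejunal values were positive and 3 of the 4 jejunal Khk KO libraries correlated best with their own number. Of 975 alternative values for 65 results on named genes, 850 kept their direction and their side of the threshold, 70 passed where the main value had not, 55 no longer passed, and 0 reversed. The cause of these changes was not tested. The depth of the whole libraries is known only through the totals that the FPKM values imply, and genes with a larger p-value are not analysed here.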
